A study of Homo sapiens with 32 samples.

Results

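The 4 HOX gene clusters were examined in lists of N6-methyladenosine (m6A) peaks from PANC-1, an established cell line of human pancreatic ductal adenocarcinoma. All peaks overlapping a window around each cluster on hg19 were taken, wherever they lay within it and whatever their strength. The windows were chr7:27130000-27250000 for HOXA, chr17:46600000-46810000 for HOXB, chr12:54330000-54450000 for HOXC and chr2:176940000-177060000 for HOXD, 570 kb in all. They held 597 of the 424904 lines in the 3 lists: 116 in HOXA, 242 in HOXB, 219 in HOXC and 20 in HOXD.

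In the study, RNA pieces pulled down with an antibody against m6A were sequenced. The lists cover 3 groups, each with 2 libraries: control cells, cells labelled KO CFL1 and cells labelled KO METTL3, all PANC-1 total RNA with no drug named. CFL1 encodes cofilin 1, which severs actin filaments, and METTL3 the catalytic subunit of the m6A writer complex. How the knockouts were made, and whether they are clones, was not stated in the labels, and the peak names of the knockout libraries carry the letters si. Those names also number the libraries: 1 and 2 for control, and 3 and 5 for either knockout. Whether a group's libraries are separate cultures is not said, so p-values measure only the spread between libraries, which may be technical. Whether either protein was absent from the cells cannot be seen in peak lists. A library listed 63859 to 79467 peaks.

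HOX genes encode homeodomain transcription factors that give cells their position along the head-to-tail axis of the embryo, and their order along the chromosome follows the order of their expression along that axis. In adult tissues and tumours, parts of the clusters are kept active while other parts are silenced by Polycomb proteins. The clusters are also dense in noncoding RNAs: HOTAIR, transcribed from HOXC, is known for its ties to Polycomb complex 2, and HOTTIP, at the HOXA13 end of HOXA, for its ties to WDR5 and MLL, which activate HOXA genes. m6A is deposited on RNA, so an m6A peak is looked for where a transcript is both present and methylated. Peak lists alone do not show that each listed peak marks methylated RNA. RNA levels were not analysed here, and more RNA and more methylation of it cannot be told apart.

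By the gene order of RefSeq (GRCh38.p14), the 39 HOX genes fall into 11 in HOXA, 10 in HOXB, 9 in HOXC and 9 in HOXD. HOXB runs from HOXB1 at the lower-numbered end of the window to HOXB13, and the far end of HOXA is that of HOXA13 with HOTTIP. HOXC and HOXD run the other way, from HOXC13 and HOXD13 at the lower-numbered end to the end of HOXC4, HOXC5 and HOXC6 and to HOXD1. No hg19 annotation or genome was used here, so peaks are given by position, are not assigned to genes, and their bases are not shown. No value is therefore given for HOTAIR, HOTTIP or any single HOX gene.

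The clusters also encode microRNAs whose mature sequences were read from RefSeq (GRCh38.p14), and they are shown here because they tie the clusters to each other by sequence. The miR-196 genes lie in HOXA (MIR196B), HOXB (MIR196A1) and HOXC (MIR196A2), and miR-196 is known to act on HOXB8 mRNA. MIR10A lies in HOXB and MIR615 in HOXC. Capitals mark the seed, bases 2 to 8 from the 5′ end, which pairs with target RNAs. The miR-196 forms have the same seed, whereas miR-10a-5p and miR-615-3p each have another. No peak was assigned to a microRNA gene.

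hsa-miR-196a-5p: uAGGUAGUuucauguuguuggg
hsa-miR-196b-5p: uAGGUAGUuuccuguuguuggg
hsa-miR-10a-5p: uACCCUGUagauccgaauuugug
hsa-miR-615-3p: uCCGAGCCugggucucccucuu

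HOXA, HOXB and HOXC were rich in m6A peaks and HOXD was nearly bare. HOXA held 17 and 14 peaks in control 1 and 2, HOXB 47 and 45, HOXC 29 and 27, and HOXD 2 and 1. Per 100 kb, this was 24.2 and 22.5 in HOXC and 22.4 and 21.4 in HOXB, against a median of 4 and 5 over all 100-kb tiles of the genome with a peak. HOXA held 14.2 and 11.7 per 100 kb, and HOXD 1.67 and 0.833. By −log10 q, though not by fold enrichment, HOX peaks were also stronger than most. Their median −log10 q, the authors' measure of how far a peak stands above background, was 12.6, 26.6, 23.5, 28.0, 30.8 and 25.9, listing the controls first, then CFL1 knockout 3 and 5, then METTL3 knockout 3 and 5. Over the whole libraries it was 7.66, 7.52, 9.45, 10.9, 11.3 and 10.2. Every library's HOX median lay above its own overall median. The median fold enrichment, the authors' ratio of antibody signal to background, was 4.07, 4.27, 3.73, 4.30, 4.66 and 4.95 in HOX and 4.15, 3.93, 4.62, 4.75, 4.66 and 4.75 over the libraries, so HOX was the higher in control 2 and METTL3 knockout 5 only. −log10 q grows with read depth as well as with enrichment, and read depth is unknown here.

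**Figure D1:**
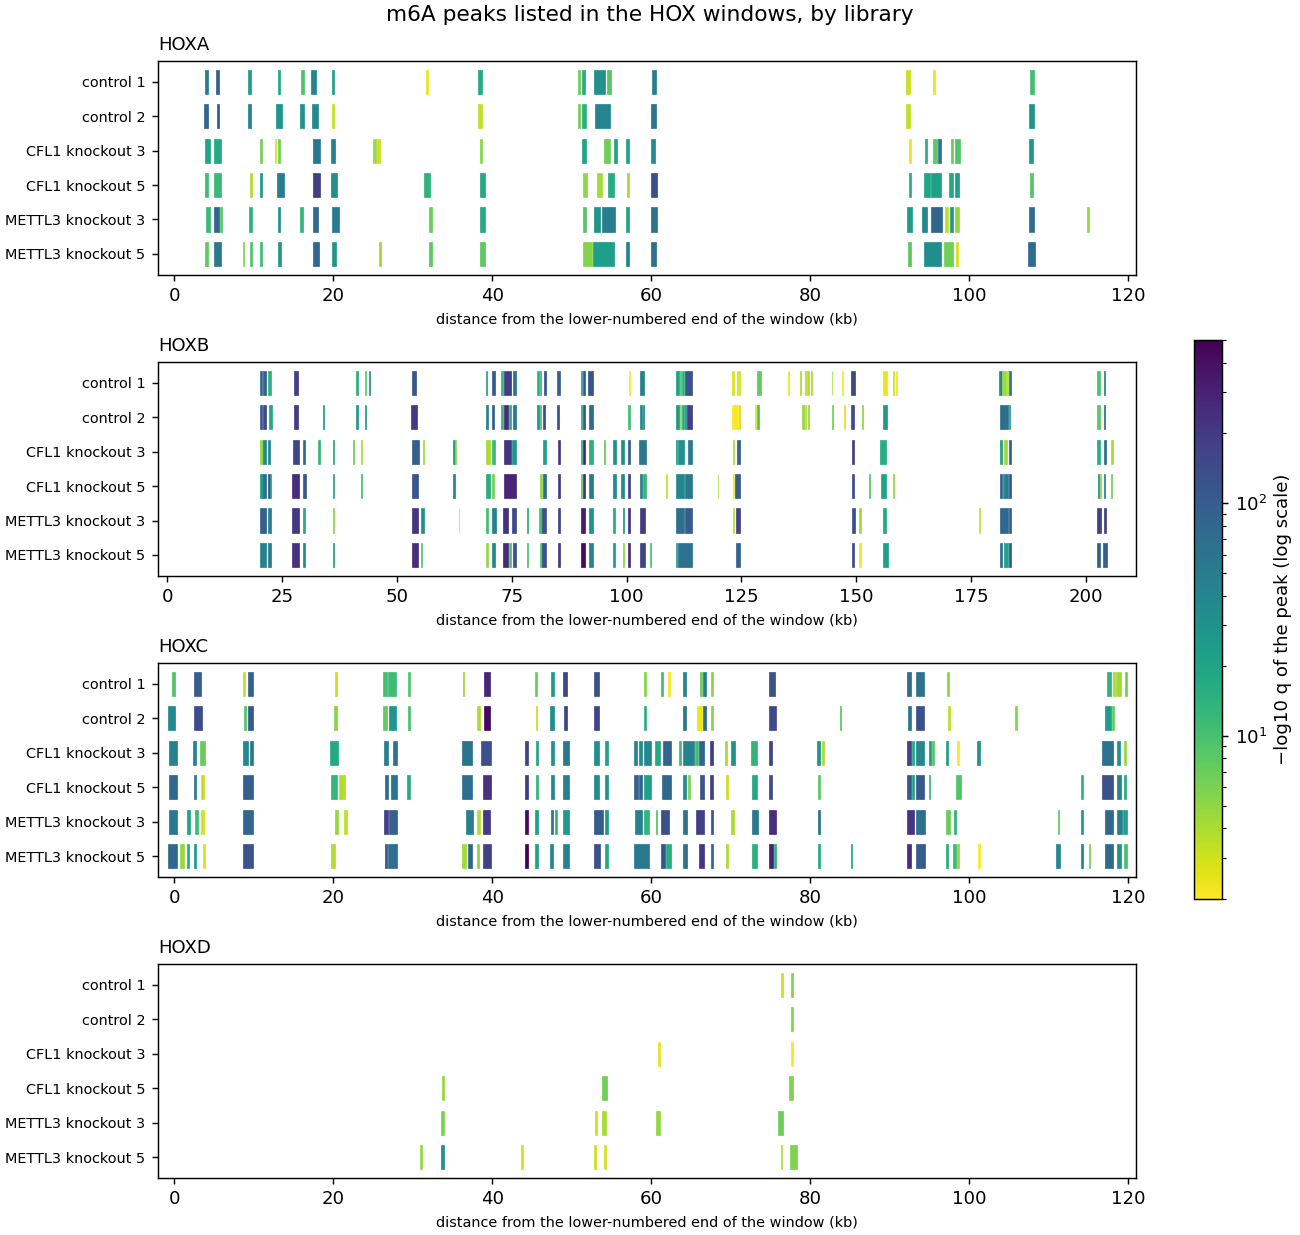
Peaks of each library along the 4 HOX windows, with the distance from the lower-numbered end in kb on the horizontal axis, 1 row per library and the colour giving −log10 q on a log scale. HOXA, HOXB and HOXC carry strong peaks at the same places in most libraries, HOXD holds 1 to 7 mostly weak peaks per library, and some places in HOXC and near 95 kb in HOXA carry strong peaks in the knockout libraries only or nearly so.

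Scaled to the size of the library, knockout peaks outnumbered those of control in HOXA, HOXC and HOXD, and not in HOXB. In HOXC the counts were 29 and 27 in control, 43 and 38 in the CFL1 knockout and 39 and 43 in the METTL3 knockout. Scaled to 100000 peaks of the library, control averaged 35.7 ± 2.40, the CFL1 knockout 58.2 ± 1.28 and the METTL3 knockout 63.6 ± 3.63 (SD, n = 2), a ratio to control of 1.63 and 1.78. Both libraries of each knockout lay above both controls. An exact permutation test of 2 against 2 libraries gave p = 0.333 (two-sided), the smallest p it allows, so no comparison of counts here could pass 0.05. Covered length in HOXC was 12.9 and 14.0 kb in control, 23.3 and 22.0 kb in the CFL1 knockout and 23.3 and 22.4 kb in the METTL3 knockout.

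In HOXA the counts were 17 and 14 in control, 22 and 20 in the CFL1 knockout and 23 and 20 in the METTL3 knockout. The scaled counts were 19.8 ± 3.03, 30.2 ± 0.0576 and 33.4 ± 3.69 (SD, n = 2), with ratios of 1.53 and 1.69, and the libraries did not overlap (exact permutation p = 0.333). Among peaks of −log10 q 10 or more the HOXA ratios were 1.16 and 1.25, and libraries of either knockout overlapped control (exact permutation p = 0.667). Over its whole window, HOXB differed from these. It held 47 and 45 peaks in control, 40 and 42 in the CFL1 knockout and 34 in each METTL3 knockout library. Its scaled counts were 58.6 ± 2.78, 59.2 ± 5.91 and 52.8 ± 0.634 (SD, n = 2). The CFL1 knockout libraries lay on both sides of control (ratio 1.01, exact permutation p = 1), and the METTL3 knockout libraries lay below it (0.901, exact permutation p = 0.333), which turned to 1.01 once peaks of −log10 q under 5 were left out. Covered length in HOXB was 24.0 and 23.6 kb in control and 24.9 to 26.0 kb in the knockouts, so the fewer peaks of the METTL3 knockout covered no less sequence. The HOXB control counts include a 19.6-kb stretch of 11 weak sites that only control libraries held, described below. Counts without that stretch were not computed, so how far HOXB differs from HOXA and HOXC outside it is not shown.

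HOXD held 2 and 1 peaks in control, 2 and 3 in the CFL1 knockout and 5 and 7 in the METTL3 knockout. Scaled, this was 1.92 ± 0.933, 3.64 ± 1.26 and 9.30 ± 2.08 (SD, n = 2). The ratios were 1.90 and 4.85, rest on few peaks, and came to 1.07 and 2.24 once peaks of −log10 q under 5 were left out. Unscaled, CFL1 knockout 3 and control 1 were level. Summed over the 4 clusters, libraries held 95 and 87 peaks in control, 107 and 103 in the CFL1 knockout and 101 and 104 in the METTL3 knockout. The scaled ratios were 1.30 and 1.37, and 1.15 and 1.13 without scaling. The CFL1 knockout ratio turned to 0.925 once peaks of fold enrichment under 4 were left out.

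**Figure D2:**
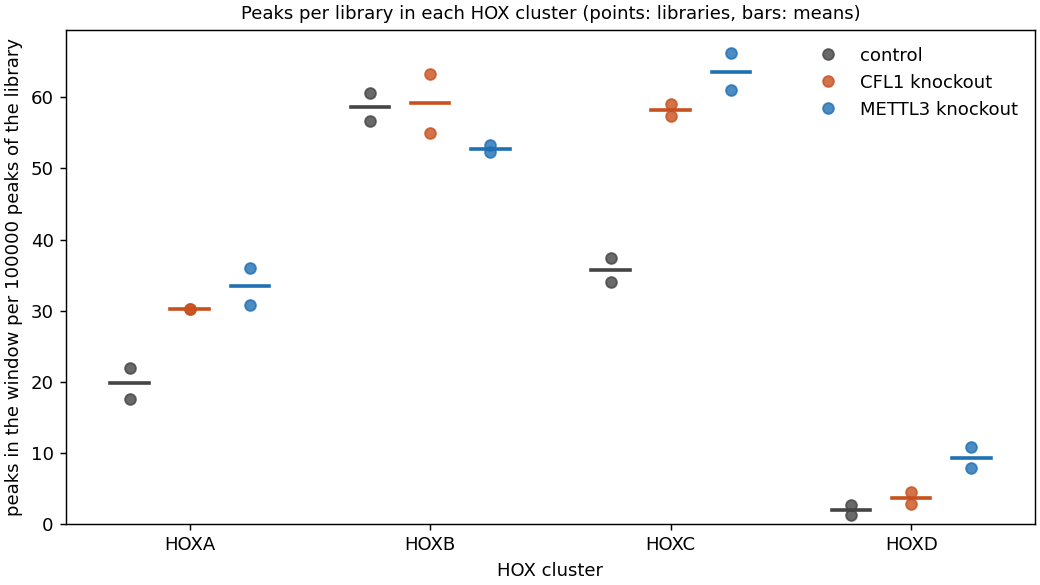
Peaks in each HOX cluster per 100000 peaks of the library. Points are libraries and bars are means of 2 libraries. Both libraries of each knockout lie above both controls in HOXA, HOXC and HOXD, whereas in HOXB the CFL1 knockout libraries lie on both sides of control.

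Control peaks in the HOX clusters had a knockout peak over them more often than control peaks at large. Of the 182 control HOX peaks, 35 (19.2%, exact 95% binomial interval 13.8% to 25.7%) had no overlapping CFL1 knockout peak, against 57.8% of all control peaks. In the METTL3 knockout 33 (18.1%, 12.8% to 24.5%) had none, against 57.7%. Intervals cover counting error only, and neighbouring peaks are not independent. The gap was also read among the stronger peaks. Among control peaks of −log10 q 10 or more, 10 of 111 HOX peaks (9.01%) had no CFL1 knockout peak, against 34.6% of all such peaks, and 7 (6.31%) no METTL3 knockout peak, against 33.6%. The HOX shares thus lay below the genome's also among stronger peaks.

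The clusters differed in these shares. In HOXC, 3 of its 56 control peaks (5.36%) had no CFL1 knockout peak and 4 (7.14%) no METTL3 knockout peak. HOXA lacked a partner for 4 and 3 of 31 (12.9% and 9.68%). HOXB lacked one for 27 and 26 of 92 (29.3% and 28.3%), more than HOXA and HOXC though below the genome's share. The HOXB peaks without a partner include those of 11 weak control-only sites in a single 19.6-kb stretch, described below. HOXB shares without that stretch were not computed. HOXD had 3 control peaks, of which 1 had no CFL1 knockout peak and 0 had no METTL3 knockout peak.

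Peaks held by a knockout and not by control were a smaller share of the HOX lists than of the whole lists. They were 68 of 209 CFL1 knockout HOX peaks (32.5%, 26.2% to 39.3%), against 53.2% of all CFL1 knockout peaks. In the METTL3 knockout they were 71 of 205 (34.6%, 28.1% to 41.6%), against 49.3%. At a −log10 q of 10 or more the HOX shares were 40 of 157 (25.5%) and 34 of 147 (23.1%), against 32.9% and 29.3%, a smaller gap. HOXC had the most such peaks, 29 of 80 and 30 of 82 (36.3% and 36.6%), and HOXB 22 of 82 and 17 of 68 (26.8% and 25.0%). HOXD went the other way, with 3 of 5 CFL1 knockout and 9 of 12 METTL3 knockout peaks (60% and 75%), above the whole lists. The knockouts shared most HOX peaks with each other. Of the CFL1 knockout HOX peaks, 23 of 209 had no METTL3 knockout peak, against 34.9% of the list, and in the opposite direction 31 of 205 (15.1%), against 29.6%.

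**Figure D3:**
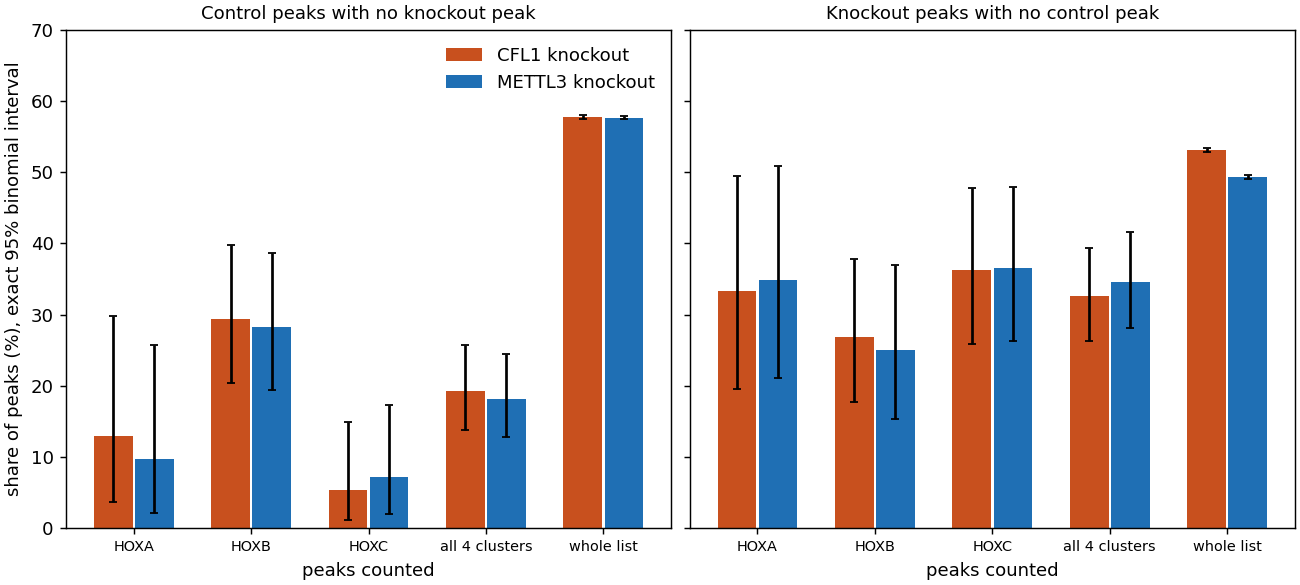
Share of control peaks with no knockout peak (left) and of knockout peaks with no control peak (right), in percent, for HOXA, HOXB, HOXC, all 4 clusters and the whole list. Bars carry exact 95% binomial intervals, and HOXD, with 3 to 12 peaks per list, is not drawn. Control peaks without a partner make up 19.2% and 18.1% over the 4 clusters, against 57.8% and 57.7% over the whole list.

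Peaks of all 6 libraries were then joined wherever they overlapped, which gave 143 sites: 24 in HOXA, 61 in HOXB, 50 in HOXC and 8 in HOXD, numbered here from the lower-numbered end of each window. The median site spanned 481 bp, against 320 bp over the 174376 sites of the genome, but among sites of all 6 libraries it spanned 1036 bp, against 1093 bp. All 6 libraries held 51 of the 143 (35.7%), against 10.8% of all sites: 11 in HOXA, 21 in HOXB, 19 in HOXC and 0 in HOXD. A single library held 35 (24.5%), against 48.3%, and 21 of these were in HOXB. At least 1 control and no knockout library held 21 (14.7%, against 32.6%), of which 18 were in HOXB. At least 1 knockout and no control library held 56 (39.2%, against 45.6%), with 22 in HOXC and 20 in HOXB.

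Sites that both libraries of a group held and another group lacked ran mostly towards the knockouts. Both controls and no knockout library held 8 sites (5.59%), against 13.3% over the genome, and 7 of the 8 were in HOXB. All 4 knockout libraries and no control held 11 (7.69%), against 3.63%: 3 in HOXA, 4 in HOXB and 4 in HOXC. By knockout, 9 sites held by both controls were absent from the CFL1 knockout (6.29%, against 14.8%) and 9 from the METTL3 knockout (6.29%, against 14.7%). Both CFL1 knockout libraries and no control held 18 (12.6%, against 8.45%), and both METTL3 knockout libraries and no control held 21 (14.7%, against 8.40%).

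In HOXC, the strongest site of all was one that control lacked. HOXC site 14, chr12:54374078-54374509, had a −log10 q of 171 and 197 in CFL1 knockout 3 and 5 and of 427 and 504 in METTL3 knockout 3 and 5. Its fold enrichment was 14.4 and 12.3, then 15.5 and 40.2. Neither control library had a peak there, and the nearest control peak was 907 bp away. The strongest site in control lay nearby. HOXC site 13, chr12:54368612-54369794, had a −log10 q of 284 and 433 in control, 129 and 224 in the CFL1 knockout and 200 and 174 in the METTL3 knockout. Its fold was 10.6 and 13.9, 6.74 and 8.65, then 9.68 and 9.41, so all 4 knockout libraries lay below both controls. The third strongest, HOXC site 31 at chr12:54404802-54405716, had a fold of 7.75 and 7.71 in control, 3.33 and 3.09 in the CFL1 knockout and 4.71 and 6.02 in the METTL3 knockout. Its −log10 q did not follow, at 123 and 151, 161 and 141, then 250 and 308.

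Other HOXC sites that control lacked were weaker. HOXC site 30 (chr12:54402576-54403393) had a −log10 q of 13.5 and 18.0 in the CFL1 knockout and 54.4 and 15.1 in the METTL3 knockout. HOXC site 32 (chr12:54410895-54411192) had 60.6 and 17.4 in the METTL3 knockout, and 27.9 in CFL1 knockout 3 with a weaker peak in CFL1 knockout 5. HOXC site 20 was the remaining HOXC site held by all knockout libraries and by no control. No HOXC site was held by both controls and by no knockout library. HOXC site 10 (chr12:54359321-54359699) was held by both controls (9.09 and 9.93) and CFL1 knockout 5 (16.2), and by no METTL3 knockout library.

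Among the sites of all 6 libraries, strength moved both ways within HOXC. A further rule, set after the values had been seen, took sites whose fold was at least 2 times higher or lower in both knockouts, with both libraries of each outside the controls. It found 3 higher and 2 lower of the 51 HOX sites (5.88% and 3.92%), against 8.91% and 3.51% over the genome, so neither share stands far from the background. HOXC site 4, chr12:54332339-54333859 at the lower-numbered end, had a fold of 13.5 and 19.5 in control, 3.82 and 3.91 in the CFL1 knockout and 2.20 and 3.64 in the METTL3 knockout. That was 0.238 and 0.174 times control. HOXC site 18 (chr12:54378857-54379692) had 6.18 and 5.55, 2.28 and 2.07, then 1.98 and 2.67, or 0.371 and 0.392 times control.

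The higher ones were at HOXC sites 8 and 27 and HOXB site 31. HOXC site 8 (chr12:54356224-54356926) had a −log10 q of 10.4 and 7.37 in control, 47.2 and 67.1 in the CFL1 knockout and 174 and 122 in the METTL3 knockout, and a fold 2.71 and 3.29 times that of control. HOXC site 27 (chr12:54397412-54397821) had 5.24 and 5.28, 179 and 172, then 112 and 78.1, with fold ratios of 2.61 and 2.07. At both sites all knockout libraries lay far above control. Sites chosen after their values were seen add to both directions, HOXC site 19 by fold and HOXC sites 23 and 11 mainly by −log10 q. HOXC site 19 (chr12:54382782-54383878) had a fold of 5.78 and 6.37 in control, 1.92 and 1.89 in the CFL1 knockout and 2.82 and 3.57 in the METTL3 knockout. HOXC site 23 (chr12:54391252-54392512) had a −log10 q of 10.6 in control 1 and no peak in control 2, against 84.3 and 79.9, then 136 and 122 in the knockouts. The fold of site 23 was 2.15 in control 1, against 4.62 and 4.46, then 7.05 and 7.63. HOXC site 11 (chr12:54366242-54367557) was alike in −log10 q, with 4.69 in control 1 only, against 62.2 and 69.3, then 45.7 and 84.3. In fold its gap was small in most libraries, at 2.65 in control 1, against 3.29 and 3.21, then 3.20 and 6.49.

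The strongest HOXB sites were held by every library, while HOXB also held most of the HOX sites that only control had. HOXB site 26 (chr17:46689959-46691012) had a −log10 q of 109 and 117 in control, 287 and 236 in the CFL1 knockout and 336 and 432 in the METTL3 knockout. Its fold differed less: 5.59 and 5.06, 6.29 and 4.85, then 6.27 and 9.28. HOXB site 20, chr17:46672579-46675989, 3411 bp wide, was alike in all groups, with a fold of 5.08 and 5.88, 4.71 and 5.42, then 4.45 and 6.18, and libraries that overlapped. HOXB site 3 (chr17:46627087-46628689) had a fold of 6.07 and 5.70 in control, 3.74 and 5.12 in the CFL1 knockout and 4.67 and 5.26 in the METTL3 knockout.

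The 7 HOXB sites of both controls and no knockout had −log10 q values up to 28.8. HOXB site 22 (chr17:46680561-46680851) had 14.6 and 28.8 in control 1 and 2, HOXB site 11 (chr17:46643019-46643315) 8.15 and 26.9, and HOXB site 9 (chr17:46641110-46641440) 15.7 and 26.0. Knockout peaks lay close to some of them: the nearest was 164 bp from site 22, 441 bp from site 9 and 620 bp from site 11. The other 4 of the 7 lay in a stretch of 11 neighbouring sites over 19.6 kb, chr17:46727946-46747547, that only control libraries held. This stretch was picked out after its values had been seen. Its sites peaked at a −log10 q of 2.03 to 9.69, below the HOX median of either control library. Over the genome, 576 of 23391 such stretches (2.46%) held at least as many sites.

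HOXB sites held by all 4 knockout libraries and no control were moderate in strength. HOXB site 4 (chr17:46629446-46630056) had a −log10 q of 72.7 and 113 in the CFL1 knockout and 17.6 and 34.9 in the METTL3 knockout, with a control peak 969 bp away. HOXB site 29 (chr17:46697043-46697718) had 31.2 and 34.3, then 15.9 and 21.3. HOXB site 30 (chr17:46698717-46699449) had 30.0 and 36.3, then 25.6 and 5.11, and HOXB site 7 was the remaining one. Next to sites 29 and 30, HOXB site 31 (chr17:46700210-46700669) had a −log10 q of 2.13 and 10.6 in control, against 98.1 and 168 in the CFL1 knockout and 218 and 240 in the METTL3 knockout. Its fold was 1.83 and 2.67, 6.58 and 9.28, then 8.19 and 11.5, which was 3.54 and 4.40 times control.

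Further HOXB sites, also chosen after their values were seen, showed large gaps in −log10 q or in fold. HOXB site 37 (chr17:46722969-46724771) had a −log10 q of 3.07 and 3.14 in control, 91.5 and 106 in the CFL1 knockout and 163 and 88.9 in the METTL3 knockout. Its fold differed less, above all in the CFL1 knockout: 3.11 and 3.31, 4.21 and 5.29, then 14.4 and 8.41. That was 1.47 and 3.43 times control. HOXB site 59 (chr17:46802335-46803360), near the HOXB13 end, had a fold of 7.05 and 4.25 in control and 6.56 and 13.0 in the CFL1 knockout, which overlapped, and 42.1 and 24.7 in the METTL3 knockout. HOXB site 19 (chr17:46670611-46671473) ran the other way, with 6.34 and 5.70 in control, 1.83 and 1.49 in the CFL1 knockout and 3.40 and 3.70 in the METTL3 knockout. HOXB site 24 (chr17:46681642-46682422) had a fold of 9.42 and 9.59, 2.53 and 5.03, then 6.04 and 5.93. At both, the CFL1 knockout was lowest.

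HOXA sites 8 and 18 were among the strongest of HOXA, and CFL1 knockout 5 stood far above the other libraries at both. HOXA site 8 (chr7:27147229-27148325) had a −log10 q of 187 in CFL1 knockout 5 and 53.7 in CFL1 knockout 3, against 41.3 and 37.5 in control and 78.3 and 80.0 in the METTL3 knockout. HOXA site 18 (chr7:27189930-27190657) had 137 in CFL1 knockout 5 and 33.6 in CFL1 knockout 3, against 46.9 and 58.1 in control and 65.2 and 64.2 in the METTL3 knockout. The CFL1 knockout libraries thus differed from each other by more than either group mean did from control at these sites.

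Towards the HOXA13 end, 3 neighbouring HOXA sites were held by all 4 knockout libraries and by 1 control library at most. Short runs of this kind were common. The longest HOXA run of neighbouring sites that only knockout libraries held had 2 sites. Over the genome, 15528 of 29875 such runs (52.0%) held at least as many. HOXA sites 20 and 23 were chosen after their values were seen. HOXA site 20 (chr7:27224078-27226606) had 1 weak peak in control 1 (−log10 q 2.33) and none in control 2, against 55.7 and 21.8 in the CFL1 knockout and 84.8 and 33.0 in the METTL3 knockout. HOXA site 21 (chr7:27226836-27227930) had no control peak, and 7.13 and 18.0, then 26.5 and 6.56 in the knockouts. HOXA site 22 (chr7:27228219-27228884) had none either, and 9.02 and 23.1, then 4.95 and 2.89. HOXA site 17 (chr7:27186831-27187223), further from that end, was the other HOXA site of all 4 knockout libraries, with 20.2 and 4.20, then 19.4 and 42.7. HOXA site 23 (chr7:27237433-27238218) had a fold of 7.36 and 12.3 in control, 13.1 and 6.94 in the CFL1 knockout and 19.1 and 27.5 in the METTL3 knockout, where only the last lay apart from control. The 1 HOXA site of both controls and no knockout was HOXA site 14 (chr7:27180766-27181036), at 6.79 and 6.36, and a CFL1 knockout peak lay 253 bp away. HOXA site 7 (chr7:27145839-27146279) was held by both controls (9.44 and 28.8) and METTL3 knockout 3 (12.8), and by no CFL1 knockout library. HOXA site 5 (chr7:27140736-27141092) was held by both CFL1 knockout libraries (6.30 and 26.2) and METTL3 knockout 5 (11.2), and by no control.

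HOXD sites were weak apart from 1 peak of METTL3 knockout 5. None was held by all 6 libraries. HOXD site 8 (chr2:177017352-177018355) came closest, with a −log10 q of 5.67 and 5.48 in control, 2.17 and 5.65 in the CFL1 knockout and 5.81 in METTL3 knockout 5. HOXD site 2 (chr2:176973571-176973909), towards the HOXD13 end, was the strongest, at 32.0 in METTL3 knockout 5, 5.92 in METTL3 knockout 3, 4.71 in CFL1 knockout 5 and no peak in the other libraries. HOXD sites 2, 4 and 5 were held by both METTL3 knockout libraries and no control, and the nearest control peak was 21922 to 42386 bp away. HOXD site 7 (chr2:177015931-177016509) had 3.11 in control 1 and 6.92 and 3.61 in the METTL3 knockout, with no CFL1 knockout peak.

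Across the 51 HOX sites of all 6 libraries, fold enrichment in the CFL1 knockout leaned lower than over the genome. Both CFL1 knockout libraries lay above both controls at 8 (15.7%), against 33.8% of the 18877 such sites of the genome, and below at 19 (37.3%), against 26.6%. The median ratio to control was 0.954 in HOX and 1.07 over the genome. Both METTL3 knockout libraries lay above both controls at 20 (39.2%, against 43.3%) and below at 14 (27.5%, against 20.0%), with a median ratio of 1.21 in HOX and 1.22 over the genome. By cluster, the CFL1 knockout lay below at 9 of 21 sites in HOXB, 7 of 19 in HOXC and 3 of 11 in HOXA, and above at 3, 5 and 0.

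By −log10 q the CFL1 knockout did not lean lower. It lay above both controls at 20 of the 51 (39.2%, against 35.3%) and below at 13 (25.5%, against 31.5%). The METTL3 knockout lay above at 28 (54.9%, against 42.8%) and below at 12 (23.5%, against 27.8%). By −log10 q the CFL1 knockout shares thus lay near those of the genome, with no clear leaning either way. The lower leaning of the CFL1 knockout holds for fold enrichment only. The comparisons of each knockout share the same control libraries.

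**Figure D4:**
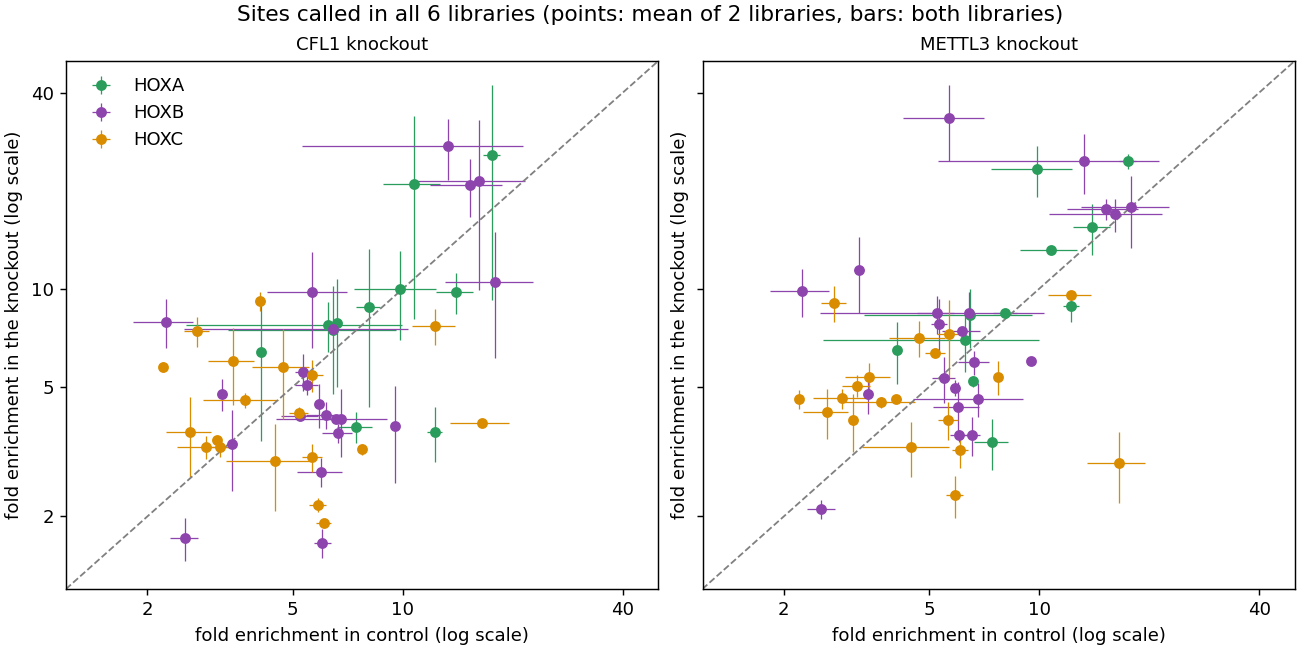
Fold enrichment in control (horizontal, log scale) and in each knockout (vertical, log scale) at the 51 HOX sites of all 6 libraries, coloured by cluster. Points are means of 2 libraries, bars reach to both libraries, and the dashed line marks equal values. In the CFL1 knockout 19 sites lie below control with both libraries and 8 above, and in the METTL3 knockout 14 below and 20 above.

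HOX sites held by both libraries of a knockout and by none of the other were compared with the genome. Their share lay below the genome's for the CFL1 knockout and above it for the METTL3 knockout, on few sites. Both CFL1 knockout libraries and no METTL3 knockout library held 4 (2.80%, against 3.74% over the genome). They were HOXB sites 10, 15 and 61 and HOXC site 38, the strongest being HOXB site 15 (chr17:46662156-46662544) with a −log10 q of 25.5 and 40.7. Both METTL3 knockout libraries and no CFL1 knockout library held 8 (5.59%, against 3.63%). They included HOXC site 45 (chr12:54440859-54441392), at 7.98 and 36.8, and HOXC site 3 (chr12:54331632-54331954), at 19.9 and 15.9. HOXB site 21 (chr17:46678371-46678577) had 18.0 and 9.76. Of the 8, 4 were in HOXC, 2 in HOXB and 2 in HOXD. In fold enrichment, at the 51 sites of all 6 libraries, both METTL3 knockout libraries lay above both CFL1 knockout libraries at 18 (35.3%, against 33.9% over the genome): 8 in HOXB, 7 in HOXC and 3 in HOXA. They lay below at 3 (5.88%, against 14.6%), all in HOXC. The knockouts lay on opposite sides of both controls at 3 (5.88%, against 4.68%).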

How the data were processed

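Antibody-bound and input RNA of PANC-1 was sequenced, and 12 of the 32 labelled samples stand behind the 3 lists. The other 20 were not analysed here. STAR, MACS2, bedtools and hg19 are named in the submitters' processing notes, while their versions, settings and the use of input in peak calling are not stated. The deposited columns used were fold enrichment, a ratio, −log10 q and the summit position. They are the authors' own values. The names of the peaks separate 2 libraries per list, whose numbers in the knockouts are not the labels' replicate numbers.

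Windows, members and gene lists were chosen with earlier results of these data known. Equal intervals were collapsed to the highest −log10 q, and peaks overlapped if they shared at least 1 bp. A site's value in a library is that of its peak with the highest −log10 q. Named sites were, per cluster, the 3 strongest, and up to 3 per pattern in which both libraries of a group held a site and another group held none. Of the strongest HOXA sites, 1 is not reported here. Genes of HOX cofactors and regulators were not placed, since no hg19 annotation was used. Joining and overlap were tested on simulated data (Python 3.11.15, pandas 2.3.3, scipy 1.17.1). Read depth is unknown, so precision was judged between libraries only.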

Additional observations from a re-analysis of the deposited data

Results flagged for a closer look

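At 3 HOX sites held by all 6 libraries, the knockouts lay on opposite sides of control in fold enrichment, with both libraries of each knockout outside both controls (5.88% of 51 sites, against 4.68% of 18877 over the genome). No test was made of how far the knockouts differ. At HOXB site 13 (chr17:46653101-46654777) the fold was 4.63 and 5.84 in control, 3.99 and 4.15 in the CFL1 knockout and 7.28 and 9.52 in the METTL3 knockout, a CFL1 minus METTL3 difference of means of -4.33. At HOXB site 32 (chr17:46702769-46704281) it was 6.88 and 5.42, 4.49 and 3.70, then 7.21 and 7.63, a difference of -3.33. At HOXC site 16 (chr12:54377270-54377816) it was 4.87 and 5.51, 3.96 and 4.34, then 6.49 and 6.21, a difference of -2.20. In all 3 the METTL3 knockout was the higher.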

How the results depend on the processing

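No paired analysis was possible because library numbers in the knockout lists (3 and 5) match no replicate number of the labels. Ratios of scaled HOX counts kept their direction in every alternative that gave a value for HOXA and HOXC in both knockouts, for HOXD in the METTL3 knockout and for the 4 clusters summed in the METTL3 knockout. No control peak of HOXD had a −log10 q of 10 or more, so that limit gave no HOXD ratio. At a fold of 4 or more, the CFL1 knockout libraries overlapped control in HOXA (1.1) and HOXC (1.21), and the ratio reversed to 0.925 over the 4 clusters, 0.912 in HOXD and 0.727 in HOXB. The HOXB ratio in the CFL1 knockout, 1.01, also turned to 0.969 with −log10 q limited to 10 or more, 0.999 in windows 50 kb wider, 0.891 without scaling, 0.977 without control 2 and 0.939 without CFL1 knockout 5. In the METTL3 knockout, the HOXB ratio turned to 1.01 with −log10 q limited to 5 or more. With each library left out, ratios in the CFL1 and METTL3 knockouts ran from 1.24 to 1.38 and 1.30 to 1.45 over the clusters, 1.38 to 1.71 and 1.52 to 1.90 in HOXA, 0.939 to 1.08 and 0.872 to 0.932 in HOXB, 1.56 to 1.71 and 1.70 to 1.87 in HOXC, and 1.41 to 2.89 and 3.61 to 7.39 in HOXD. 

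The shares are, in order, control peaks without a CFL1 or a METTL3 knockout peak, and CFL1 and METTL3 knockout peaks without a control peak. They are given mainly where they moved by over 1 SD between libraries. That SD, from 2 libraries each, was 1.98, 0.351, 4.52 and 0.0269 percentage points. A move of the same size may thus count for 1 share and not for another. With −log10 q of 5 or more, all but the CFL1-to-control share, at 35%, moved by that measure, to 16.9%, 13.4% and 33.9%. With 10 or more, the shares came to 13.5%, 10.8%, 38.9% and 34.7%, and with 10 or more in the list counted only, an alternative chosen after seeing the data, 9.01%, 6.31%, 25.5% and 23.1%. Limiting fold to 4 or more gave 33.7%, 22.4%, 44.1% and 41.4%. With 50% of the shorter peak shared, all but the CFL1-to-control share, at 36.8%, moved by that measure, to 24.2%, 20.9% and 36.1%. Matching by summit gave 27.5%, 20.9%, 43.1% and 46.3%, and after merging within 100 bp 25.3%, 24.2%, 37.1% and 38.9%. In wider windows the last 3 were 19.3%, 37.4% and 35.8%. Leaving out each library in turn gave 17.9% to 24.2%, 17.9% to 21.4%, 29.1% to 38.3% and 34.6% to 41.0%. Whole-list shares are not given at these settings, except with 10 or more in the list counted only. Whether the HOX shares stay below those of the whole lists at the other settings is therefore not shown. Why the shares moved was not tested. Without known read depth, a peak not listed may lie just under the threshold.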
